A study of Homo sapiens with 46 samples.

Results

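H1 human embryonic stem cells depleted of KBTBD8 were followed from day 3 to day 6 of neural conversion in 8 of the 46 libraries of the series. These are the 8 libraries whose titles give the KBTBD8 hairpin and day 3 (ND3) or day 6 (ND6): 2 mRNA and 2 ribosome footprint libraries at each day. Counts at ND6 were set against counts at ND3 within each assay. H1 is an established human embryonic stem cell line. Every culture was infected with a lentivirus carrying a short hairpin RNA, directed against KBTBD8 in the depleted cells (shKBTBD8) and a control hairpin in the control cells (shControl). A separate set of libraries, used below, also held cells with a hairpin against TCOF1 (shTCOF1). Conversion was in a medium the labels name only as NIM. The 8 shControl libraries of the same days and assays served as comparator, and the labels do not say how many hairpin sequences were used, so an effect of a hairpin on other targets cannot be told apart from loss of KBTBD8. The labels do not say whether the 2 replicates of a group were separate cultures, so p-values measure the spread between these libraries, which may be technical.

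KBTBD8 brings target proteins to CUL3, a ubiquitin ligase that marks them with ubiquitin. CUL3 with KBTBD8 ubiquitylates TCOF1 and NOLC1, which act in ribosomal RNA production, and this is known for directing embryonic cells towards neural crest rather than central nervous system precursors. Ribosome footprints are the stretches of mRNA that ribosomes cover and protect from a nuclease. Their level relative to mRNA is called translational efficiency (TE), so a step in footprints that equals the step in mRNA leaves TE where it was.

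The identifiers in the files were not paired with gene names in the sources used here. The level of KBTBD8 itself, markers of undifferentiated, neural and neural crest cells, and lists of signalling genes were therefore not analysed here, and the labelled cell states could not be checked against markers. Transcripts are described in groups by how they moved, with 5 identifiers as examples. In bulk samples such as these, fewer cells of a type and less RNA per cell cannot be told apart. Neighbouring isoform rows that held the same reads were joined, which left 17680 transcripts. Among these, 60 still had counts identical to another transcript in every library, since their rows lay too far apart to be joined, and 6 of the repeats are among the calls of the mRNA step.

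Counts summed over these transcripts came to 16.3 to 24.6 M in the 4 mRNA libraries of depleted cells. The footprint libraries were shallower. At ND3 they held 4.07 M counts in replicate 1 and 2.38 M in replicate 2, and at ND6 3.81 M and 1.03 M. Both replicate 2 footprint libraries of depleted cells stood apart, with 21.8% of transcripts at 0 counts on each day, against 1.69% at ND3 and 1.65% at ND6 in replicate 1. Control footprint libraries of these days had 1.56% to 9.73% of transcripts at 0. The gaps lay among the scarce transcripts. Of the 3532 transcripts with the lowest mRNA level, 66.3% had no footprint count in replicate 2 at ND3, and of as many with the highest level 0.311%. The correlation of log2 levels between replicates was 0.992 at ND3 and 0.983 at ND6 in mRNA, and 0.856 and 0.845 in footprints. Results from footprints are therefore given by replicate as well.

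The mRNA of depleted cells changed widely between day 3 and day 6, about equally in both directions. In mRNA, 1518 transcripts rose and 1469 fell by edgeR's quasi-likelihood test with Benjamini-Hochberg adjustment at 0.05, which is 8.6% and 8.32% of the 17659 tested. The median step, ND6 less ND3, was 0.96 on the log2 scale among risers and -0.88 among fallers. Steps of at least 2-fold were seen in 701 risers and 638 fallers, and of at least 4-fold in 218 and 194. All 1518 risers and all 1469 fallers moved the same way in both replicates of the mRNA, with median steps of 0.95 and 0.91 for risers and -0.93 and -0.83 for fallers, a pattern that the test itself favours. Across all transcripts tested, the steps of replicate 1 and replicate 2 had a Pearson correlation of 0.85, over transcripts that share the same 4 libraries. The count of called transcripts fell from 2987 to 1466 without replicate 1 at ND3, to 1455 without replicate 2 at ND3 and to 1799 without replicate 1 at ND6.

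Of transcripts that rose in both assays and reached 10 CPM, uc001rqt.3 had the largest mRNA rise. Its mRNA stood at 1.47 and 2.09 CPM at ND3 (counts scaled to the library total, per 1e+06) and at 111 and 94.4 CPM at ND6. Both ND6 libraries were far above both ND3 libraries, and the groups did not overlap. This and the other transcripts named by rule were chosen on these libraries, which favours such separation of the days. The step was 5.85 ± 0.33 (log2, SE, n = 2 libraries a day, edgeR adjusted p = 7.08e-08). Its footprints went from 3.02 and 6.3 CPM to 126 and 83.5 CPM, a rise of 4.56 ± 0.55 (log2, SE, edgeR adjusted p = 8.42e-05). Control cells held more of this mRNA at ND3, at 9.74 and 15.5 CPM, and 141 and 169 CPM at ND6. Their step was 3.61 ± 0.28 (log2, SE, edgeR adjusted p = 1.33e-06), and the difference between the steps was 2.23 ± 0.41 (log2, SE, edgeR adjusted p = 0.0161). The test of that difference did not pass without control replicate 1 at ND6 (2.11), without depleted replicate 1 at ND3 (2.0) or without control replicate 2 at ND3 (1.87). Earlier its mRNA in depleted cells was 3.92 and 2.09 CPM at hES and 4.49 and 3.29 CPM at ND1, so in these libraries its increase lay in the last interval. A separate set of libraries, described below, differed in this. Its single depleted mRNA libraries stood at 3.94 CPM at hES and already at 32.5 CPM at ND3.

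Of transcripts that fell in both assays from at least 10 CPM, uc003cxt.1, whose identifier stands for 8 joined rows, had the largest mRNA fall. Its mRNA went from 37.8 and 40.1 CPM at ND3 to 3.12 and 2.97 CPM at ND6. All 4 libraries fell into pairs by day without overlap, and the step was -3.67 ± 0.22 (log2, SE, n = 2 a day, edgeR adjusted p = 1.09e-07). Footprints went from 34.0 and 9.84 CPM to 4.33 and 0 CPM, a step of -2.89 ± 0.64 (log2, SE, edgeR adjusted p = 0.0255), and the 0 lies in the shallowest library. That footprint call was lost without replicate 1 at ND3 (step -1.7, adjusted p = 0.123), without replicate 2 at ND6 (-2.36, adjusted p = 0.167) and with only the 4 libraries compared in the edgeR fit (-3.06, adjusted p = 0.923). In control cells the mRNA was already lower at ND3, at 14.4 and 16.8 CPM, and reached 4.44 and 2.66 CPM at ND6. At ND6 the depleted libraries thus lay within the control range, while at ND3 both lay above it. The step difference was -1.53 ± 0.3 (log2, SE, edgeR adjusted p = 0.0241), and its adjusted p ranged from 0.0523 to 0.182 in 7 of the 8 fits that left out 1 library.

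**Figure D1:**
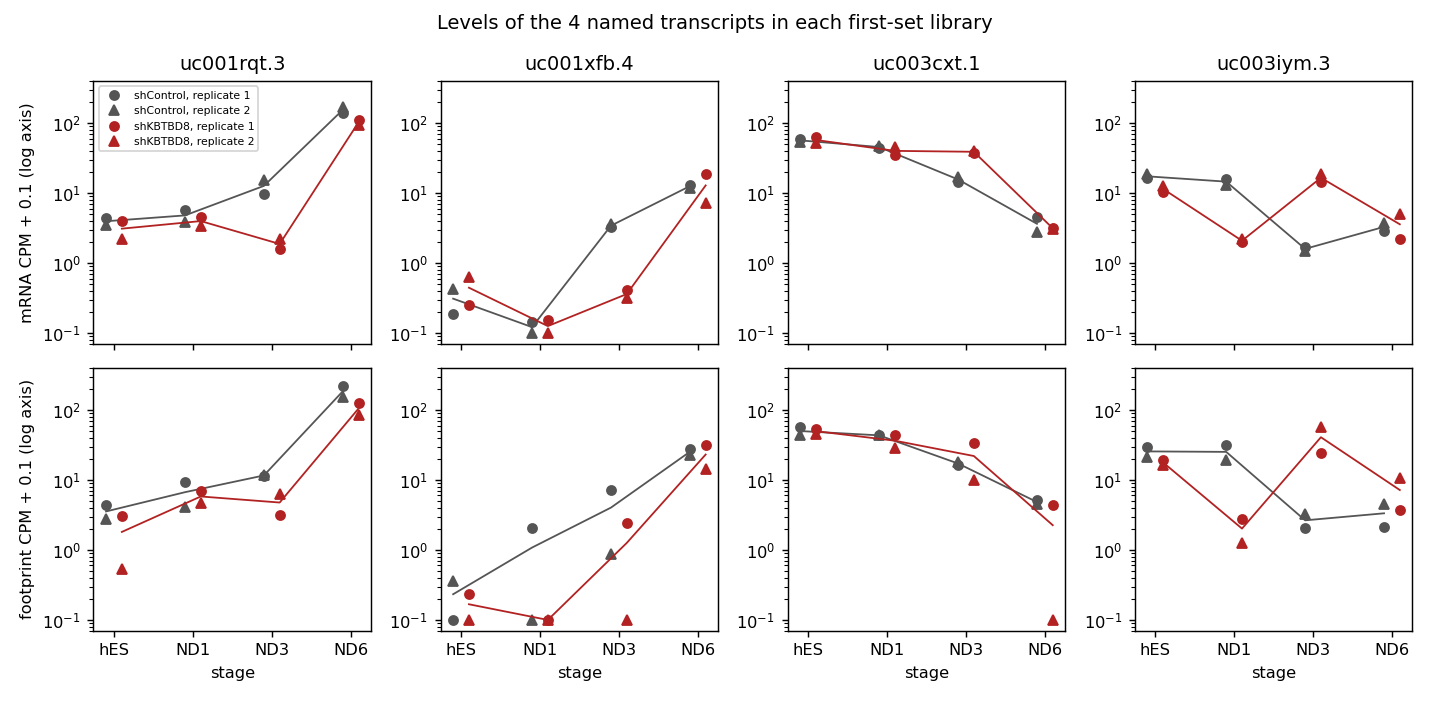
Levels of the 4 transcripts named by rule in every library of both hairpins (CPM + 0.1, log axis) at hES, ND1, ND3 and ND6, with mRNA in the upper and footprints in the lower panels; points are libraries and lines join the means of the 2 replicates. The depleted mRNA of uc001rqt.3 lay at 1.47 and 2.09 CPM at ND3 and that of uc003iym.3 at 14.4 and 18.7 CPM, on opposite sides of the control libraries of that day.

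Most of the step seen in depleted cells was also seen in control cells, whose libraries it does not share. Control mRNA had 1909 risers (10.8% of those tested) and 1779 fallers (10.1%) from ND3 to ND6, or 20.9% of transcripts called against 16.9% in depleted cells. Of the 1518 risers in depleted cells, 1433 (94.4%) had a positive step in control cells, and of the 1469 fallers 1356 (92.3%) had a negative one. Over all transcripts tested the steps had the same sign in 13422, or 76.0%. Risers in common numbered 869, which is 57.2% of the depleted and 45.5% of the control risers. Fallers in common numbered 893, or 60.8% of the depleted and 50.2% of the control fallers. Opposite calls were few, with 12 depleted risers and 16 depleted fallers called in the other direction in control cells.

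Each list was followed further in the cells in which it was called. The depleted risers had a median step of 0.96 in depleted and 0.72 in control cells, and the control risers 0.58 in depleted and 0.93 in control cells (log2, mRNA). The medians of fallers were -0.88 against -0.67 for the depleted list and -0.55 against -0.78 for the control list. Choosing a list on one kind of cell favours that kind, so these gaps are given without a test. The Pearson correlation of the steps was 0.69 across all 17659 transcripts and 0.74 across the 13554 with a mean above 5 CPM.

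**Figure D2:**
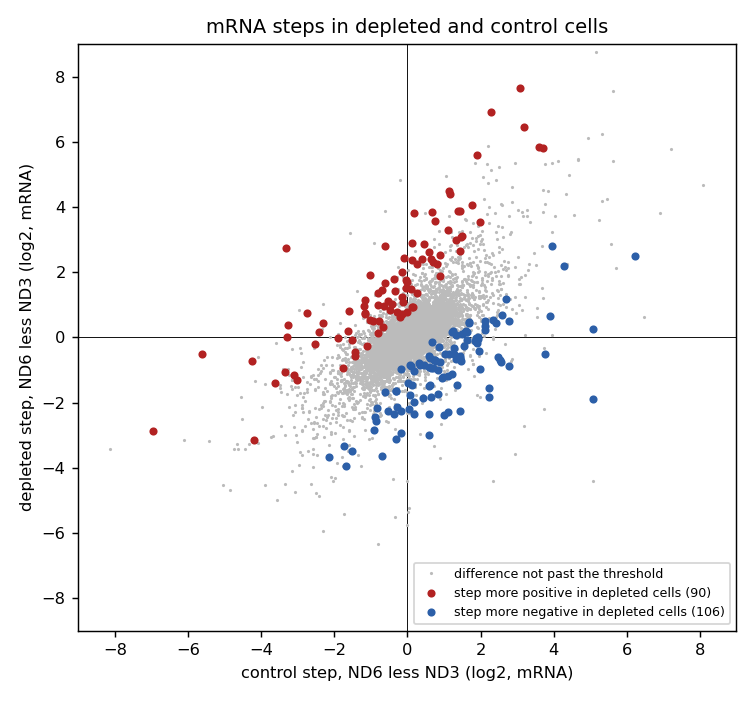
The mRNA step from ND3 to ND6 of each of 17659 transcripts in control cells (horizontal, log2) and depleted cells (vertical, log2); coloured points passed the test of the difference between the steps, 90 with the more positive and 106 with the more negative step in depleted cells. Most points lie in the quadrants where both steps have the same sign, as 76.0% of transcripts do.

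The step itself differed between depleted and control cells for a small set of transcripts. By the edgeR interaction of hairpin and day, 90 transcripts had the more positive step in depleted cells and 106 the more negative, or 0.51% and 0.6% of those tested (1.11% in all). The 90 had a median step of 1.36 in depleted and -0.24 in control cells (log2, mRNA). In depleted cells 65 of them rose and 9 fell, and in control cells 22 rose and 37 fell. The 106 had medians of -0.84 in depleted and 1.02 in control cells. Of these, 57 fell and 4 rose in depleted cells, while 9 fell and 65 rose in control cells. Calls in opposite directions made up 12 of the 90 and 16 of the 106. The count of 196 depended on single libraries. It was 71 without control replicate 1 at ND3, 48 without control replicate 1 at ND6 and 55 without depleted replicate 1 at ND3. It was 110 without control replicate 2 at ND3, 103 without control replicate 2 at ND6 and 109 without depleted replicate 2 at ND3.

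The gap behind these differences was widest at ND3 and smaller at ND6. The 90 transcripts had a median mRNA level of 2.59 and 2.75 log2 CPM in the depleted ND3 libraries and 4.18 and 4.09 in the control ND3 libraries. At ND6 the depleted libraries stood at 4.24 and 4.03 and the control libraries at 3.76 and 3.95, so the order had turned. Before ND3 the hairpins lay close, with 1.98 and 1.8 in depleted and 1.87 and 1.89 in control cells at ND1. In other words, the median of this list went up between ND1 and ND3 in control cells and mainly between ND3 and ND6 in depleted cells. The 106 transcripts showed the mirror image at ND3, with 3.54 and 3.51 log2 CPM in depleted and 2.32 and 2.49 in control cells. Their ND1 medians were 3.66 and 3.63 in depleted and 3.39 and 3.61 in control cells. At ND6 their depleted libraries had dropped to 2.53 and 2.32, below the control libraries at 3.15 and 3.06. Both lists were chosen on these ND3 and ND6 libraries, so the medians describe them and test nothing.

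Libraries that did not choose the lists exist at ND3, in a separate set of 14 libraries with 1 shControl and 1 shKBTBD8 library per assay at that day. In that set 61 of 89 transcripts from the first list (68.5%) were lower in the depleted mRNA library, against 8791 of 17566 among all transcripts in common. Their median gap, depleted less control, was -0.37 on the log2 scale, compared with -1.45 in the libraries that chose them. Of the second list, 74 of 105 were higher in the depleted library, against 8767 of 17566 among all transcripts in common. The median gap of the second list was 0.24 against 1.17. In mRNA the direction was thus shared by most of both lists, at a smaller size. In the footprint libraries of that set 49 of 80 transcripts from the first list were lower in depleted cells (61.3%, median gap -0.19, log2) and 47 of 84 from the second were higher (median 0.26). Among all 15689 transcripts in common in footprints, 7580 (48.3%) were lower and 7884 higher in depleted cells. With 1 library for each hairpin this gap has no replicate check. In the first set the footprint step difference had the sign of the mRNA difference in 77 of the 87 tested from the first list (median 1.59, log2). From the second list it did so in 93 of the 104 tested (median -1.86). The share of equal sign over all transcripts is not given here, so these counts have no base to be weighed against.

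The transcript with the most positive step difference among risers of at least 10 CPM was uc001xfb.4. It was near the limit of detection at ND3, at 0.311 and 0.213 CPM in mRNA, and stood at 18.4 and 7.21 CPM at ND6. The days did not overlap, although the ND6 replicates differed by more than 2-fold, and the step was 5.6 ± 0.56 (log2, SE, n = 2 a day, edgeR adjusted p = 1.04e-05). Control cells held 3.18 and 3.49 CPM at ND3, above both depleted libraries, and 13.1 and 11.9 CPM at ND6, between them. The control step was 1.9 ± 0.4 (log2, SE, edgeR adjusted p = 0.00438) and the difference 3.7 ± 0.72 (log2, SE, edgeR adjusted p = 0.023). The adjusted p of the difference lay between 0.0556 and 0.136 in 7 of the 8 fits that left out 1 library and passed only without depleted replicate 2 at ND6. Footprint values were 2.33 and 0 CPM at ND3 and 32 and 14.1 CPM at ND6, a step of 4.15 ± 1.34 (log2, SE, edgeR adjusted p = 0.219) that did not pass.

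The most negative step difference among fallers of at least 10 CPM belonged to uc003iym.3, which stands for 19 joined rows with a length value of 1181. Its mRNA was 14.4 and 18.7 CPM at ND3 and 2.11 and 4.87 CPM at ND6 in depleted cells, without overlap, a step of -2.29 ± 0.29 (log2, SE, n = 2 a day, edgeR adjusted p = 7.48e-05). Control cells went the other way at low levels, from 1.59 and 1.4 CPM to 2.78 and 3.62 CPM (1.11 ± 0.33, log2, SE, edgeR adjusted p = 0.0301). The ND6 ranges of the hairpins overlapped, so it was the ND3 libraries that stood apart. The difference was -3.4 ± 0.44 (log2, SE, edgeR adjusted p = 0.0017) and passed in every fit that left out 1 library, with values from -4.07 to -2.87. Along the whole course, depleted cells held 10.3 and 12.4 CPM at hES and 1.88 and 2.11 CPM at ND1, before the high ND3 values. Control cells held 16.2 and 18.5 CPM at hES and 16 and 13 CPM at ND1. The mRNA was therefore low at ND1 and high at ND3 in depleted cells and the reverse in control cells. Depleted footprints had the same shape, with 2.69 and 1.16 CPM at ND1. They were high at ND3, at 24.4 and 57.1 CPM, and lower again at ND6, at 3.61 and 10.6 CPM (step -2.67 ± 0.68, log2, SE, edgeR adjusted p = 0.0613).

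In the separate set uc003iym.3 stood at 1.8 CPM of mRNA in the depleted ND3 library and 1.43 CPM in the control library, and at 3.66 and 0 CPM in footprints. The direction was that of the other ND3 libraries, but the depleted mRNA level was far below their 14.4 and 18.7 CPM. The mRNA of uc003cxt.1 was at 17.8 CPM in the depleted and 17.2 CPM in the control library, so the hairpins were hardly apart. Its footprints lay the other way round, at 16.9 CPM in the depleted and 24.9 CPM in the control library. The mRNA of uc001rqt.3 was higher in the depleted library, the reverse of the other ND3 libraries, at 32.5 CPM against 22.9 CPM in the control library.

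Depleted cells also moved along the overall course of conversion. Transcripts that changed at least 2-fold from hES to ND3 in the separate set, 1767 induced and 1524 repressed, were read in the mRNA libraries of the step. These groups were chosen over the shControl, shKBTBD8 and shTCOF1 libraries of that set together. Of the induced transcripts, 416 (23.5%) rose further and 161 (9.11%) fell in depleted cells, with a median step of 0.33 (log2), against 8.6% and 8.32% of all tested. Of the repressed ones, 116 (7.61%) rose and 365 (24.0%) fell, with a median of -0.3. Control cells gave medians of 0.31 and -0.17 for the same groups. The step difference passed for 46 induced transcripts (2.6%) in the positive and 25 (1.41%) in the negative direction, against 0.51% and 0.6% of all tested. For repressed ones the counts were 13 (0.853%) and 30 (1.97%). In depleted footprints, of 1559 induced transcripts tested, 27 rose (1.73%) and 5 fell (0.321%). Their median step was 0.38 (log2), against 0.4 in control footprints. Of 1366 repressed ones 9 rose (0.659%) and 36 fell (2.64%), with a median of -0.2 against -0.19. Over all transcripts tested in depleted footprints 0.466% rose and 0.484% fell.

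A conversion score, the mean log2 CPM of induced less that of repressed transcripts, placed each library on this course. In mRNA the depleted libraries scored 0.91 and 0.88 at ND3 and 1.59 and 1.51 at ND6. Control libraries scored 1.52 and 1.51 at ND3 and 1.96 and 1.88 at ND6. Depleted cells at ND3 were below control cells of the same day, and depleted cells at ND6 overlapped control cells at ND3. The order of the mRNA groups was the same at ND1, with -0.93 and -1.03 in depleted and -0.66 and -0.67 in control cells. At hES, before conversion, the depleted libraries scored -2.37 and -2.24 and the control libraries -2.22 and -2.03, so the groups nearly touched without overlap. Footprint scores of depleted cells were 0.55 and 0.6 at ND3 and 1.06 and 1.36 at ND6, against 0.74 and 1.23, then 1.37 and 1.52, in control cells. These again showed the depleted libraries below the control libraries on each day, with a smaller gap than the spread between the control ND3 replicates.

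**Figure D3:**
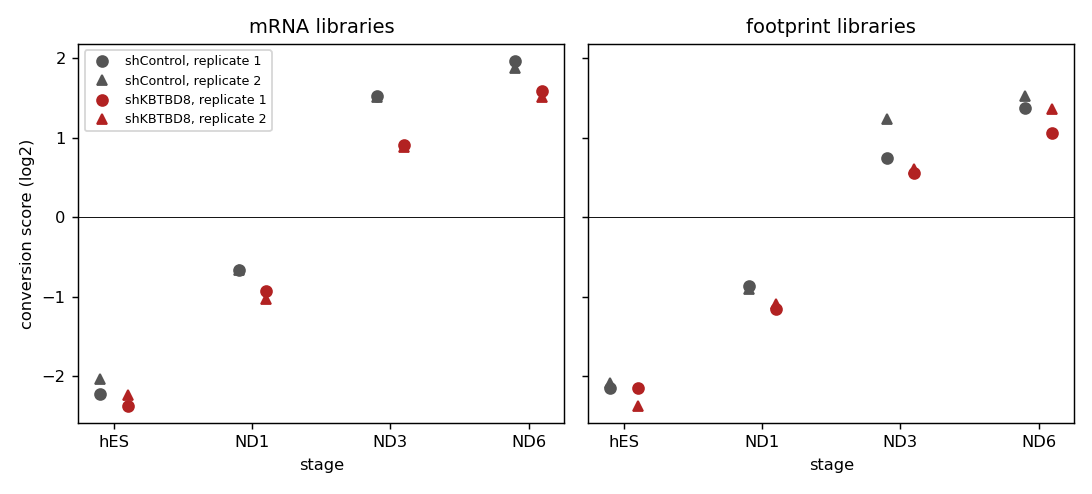
Conversion score (mean log2 CPM of 1767 induced less 1524 repressed transcripts, of which 1559 and 1366 were measured in footprints) for each library by stage, with mRNA on the left and footprints on the right; points are libraries, grey for shControl and red for shKBTBD8. In mRNA the depleted libraries at ND6, at 1.59 and 1.51, lie level with the control libraries at ND3, at 1.52 and 1.51.

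The score being level did not make the cells alike. Between group means of the 13554 mRNA transcripts above 5 CPM, the root mean square log2 distance was 0.44 from depleted ND6 to control ND3 and 0.33 from depleted ND6 to control ND6. Depleted cells at ND6 were thus nearer to control cells of the same day. The step in depleted cells spanned 0.49 and that in control cells 0.5, and the hairpins were 0.39 apart at ND3. Distances between single replicates, which carry more noise than group means, were 0.2 to 0.33.

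Many transcripts that moved from ND3 to ND6 in depleted cells went on in a direction already taken in control cells by ND3. From hES to ND3 in control mRNA, 23.7% of all transcripts rose and 23.8% fell. Of the 1518 depleted risers, 777 (51.2%) had risen in that earlier interval and 206 (13.6%) had fallen. Of the 1469 fallers, 704 (47.9%) had fallen and 276 (18.8%) had risen. Turns in direction were the smaller class in both lists.

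A few transcripts crossed from near absence to clear presence. Below 0.5 CPM in both depleted ND3 libraries and at 2 CPM or more in both ND6 libraries were 33 transcripts, with the highest ND6 mean at 18.1 CPM. All 33 also reached 2 CPM at ND6 in both control libraries, but 26 were already at 0.5 CPM or more in both control libraries at ND3. The same crossing was made in control cells by 5 of them. In the reverse direction 18 transcripts fell below 0.5 CPM, the highest from 7.52 CPM, and 4 of these were at 2 CPM or more in both control ND3 libraries. Footprints moved the same way in all 30 of the first kind and all 16 of the second that were tested. Among all called transcripts with an mRNA step of at least 2 (log2), 97.5% of risers and 94.0% of fallers did so. These transcripts were picked on the levels shown, so the counts describe them, and none of the 18 made the same crossing in control cells. The step difference passed for 4 of the 33 by edgeR, with 16 at unadjusted p values under 0.05 and 7 by DESeq2. For the 18 the counts were 0, 8 and 2. Over all 17659 tested the counts were 196 (1.11%), 1662 and 375.

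Footprints gave fewer calls in the same direction as mRNA. From ND3 to ND6 in depleted cells 78 transcripts rose and 81 fell in footprints by edgeR's quasi-likelihood test, or 0.466% and 0.484% of 16740 tested (0.95% in all). The median steps of these risers and fallers were 1.95 and -1.67 (log2). In control footprints 46 rose (0.275%) and 72 fell (0.43%), or 0.705% in all, with median steps of 1.99 and -1.45. Of the 78 depleted risers, 73 also rose in mRNA, of the 81 fallers, 76 also fell, and none was called in the opposite direction there. In control footprints 74 of the 78 and 77 of the 81 had a step of the same sign, with median steps of 1.16 and -0.98. The count of 159 varied widely with the libraries used. Without depleted replicate 1 at ND3 it was 1206, with 968 up and 238 down, and without replicate 1 at ND6 it was 521, with 114 up and 407 down. Without depleted replicate 2 it was 54 at ND3 and 67 at ND6, and without both sparse libraries 37, with 22 up and 15 down.

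The 2 replicates showed this at different strength. Footprints could be tested for 1442 of the mRNA risers, of which 1376 (95.4%) stepped upwards in replicate 1 and 962 (66.7%) in replicate 2. Of the fallers, 1337 of 1399 (95.6%) had a negative step in replicate 1 and 936 (66.9%) in replicate 2. Over all transcripts tested in footprints, 49.7% had a positive step in replicate 1 and 44.3% in replicate 2. Transcripts without counts on both days had no step and were counted as not moving with the mRNA, so the remainder did not all move against it. Median footprint steps of risers were 0.87 and 0.75, and of fallers -0.75 and -0.55, by replicate. With both replicates in the fit, 1262 risers (87.5%) and 1238 fallers (88.5%) moved the same way in footprints, against 67.6% of all transcripts with the same sign in both assays. Agreement was greatest for large mRNA steps. Of risers with a step of at least 2 on the log2 scale 193 of 198 (97.5%) had a positive footprint step, and of fallers of that size 157 of 167 (94.0%) a negative one. Across transcripts the footprint steps of the replicates had a Pearson correlation of 0.23, and of 0.47 over the 3859 with a mean above 50 CPM.

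**Figure D4:**
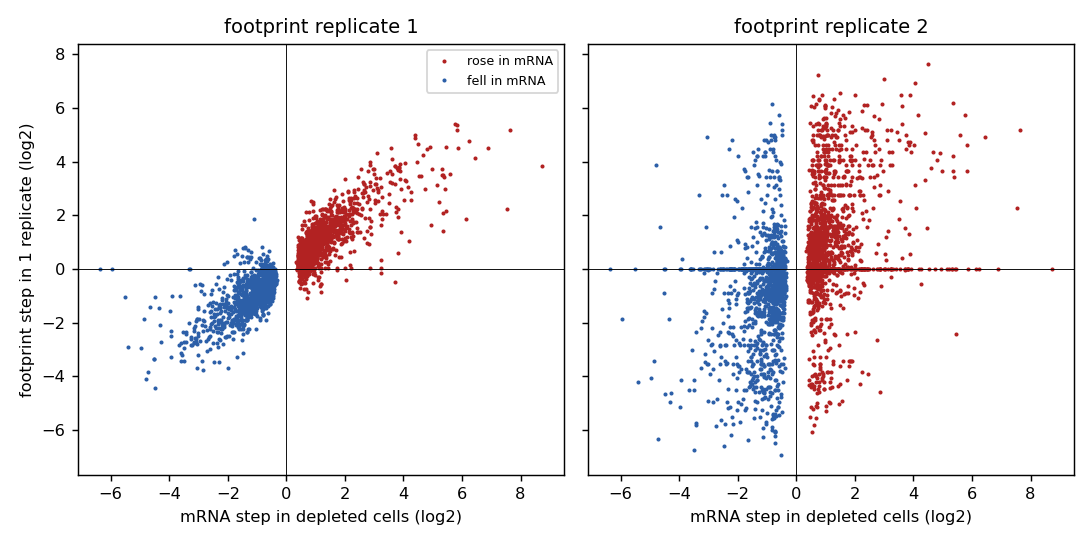
Footprint step from ND3 to ND6 in depleted cells (vertical, log2) against the mRNA step (horizontal, log2) for transcripts that rose (red) or fell (blue) in mRNA, with footprint replicate 1 on the left and replicate 2 on the right. In replicate 1 the footprint step had the mRNA direction for 95.4% of risers, and in replicate 2 for 66.7%, with a line of points at 0 from transcripts without counts on both days.

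No footprint step differed between depleted and control cells by the edgeR interaction, which called 0 of 16740 transcripts (0.0%). There were 688 with an unadjusted p under 0.05, and DESeq2 called 23. The edgeR count became 392 without depleted replicate 1 at ND3, 53 without depleted replicate 1 at ND6 and 1 without control replicate 2 at ND3. The standard error of a footprint step had a median of 0.575 (log2) against 0.193 in mRNA.

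Translational efficiency gave hardly any calls for single transcripts. In depleted cells 0 transcripts rose and 1 fell in TE from ND3 to ND6 out of 17680 (0.00566% called, edgeR quasi-likelihood test), with 621 whose unadjusted p was under 0.05 and 1 by DESeq2. Control cells had 0 calls by edgeR, with 611 whose unadjusted p was under 0.05 and 29 by DESeq2. The TE step differed between the hairpins for 0 transcripts by edgeR and 0 by DESeq2, with 476 whose unadjusted p was under 0.05. The median standard error of a TE step in depleted cells was 0.606 (log2). An estimated step of at least 1 in either direction was seen in 3217 transcripts (18.2%), so few calls do not show that TE was unchanged. The depleted count became 1728 without footprint replicate 1 at ND3 and 662 without footprint replicate 1 at ND6. The count of differences became 896 and 120 in the same cases and 1 without control footprint replicate 1 at ND6.

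The 1 transcript called was uc001kfp.3, named after its values were seen. Its mRNA was at 1.07 CPM in both depleted ND3 libraries and at 12.3 and 16.2 CPM at ND6, a rise of 3.73 ± 0.37 (log2, SE, n = 2 a day, edgeR adjusted p = 9.96e-06). Its footprints stood at 202 and 165 CPM at ND3 and 143 and 160 CPM at ND6, with a step of -0.28 ± 0.27 (log2, SE, edgeR adjusted p = 0.774). At ND3 its footprint CPM were far above its mRNA CPM, each scaled within its own assay, and the mRNA changed while the footprint step did not pass. The TE step was -4.02 ± 0.46 (log2, SE, edgeR adjusted p = 4.43e-05) and passed under every alternative run. In control cells it was -2.4 ± 0.42 (log2, SE, edgeR adjusted p = 0.0867), and the difference of -1.62 ± 0.62 did not pass (edgeR adjusted p = 1.0). In the separate set its ND3 mRNA was at 16.2 CPM in the shKBTBD8 library, 4.1 CPM in the shControl library and 0.639 CPM with a TCOF1 hairpin. That depleted level was far above the 1.07 CPM of the ND3 libraries behind the call. Footprints of the same depleted sample type stood at 72.8 CPM, below the 202 and 165 CPM of those libraries. The low ND3 mRNA behind the TE call was thus not seen in the separate depleted library.

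In the separate set TE fell from hES to ND3 for 233 transcripts over all hairpins together, and these were followed as a group. Footprint CPM over mRNA CPM, as a median log2 ratio in this group, was -0.31 and -0.86 in the depleted hES libraries, -1.23 and -1.24 in those of ND1, -1.92 and -1.9 in those of ND3 and -1.97 and -2.34 in those of ND6. Control cells gave -0.17 and -0.83, -0.97 and -1.02, -1.59 and -1.56, and -2.28 and -2.43 in the same order of stages. Depleted libraries were thus below the control libraries at ND1 and ND3, and at ND6 replicate 1 lay above both control libraries and replicate 2 between them. Over all transcripts the median ratio was -0.19 at ND3 and -0.18 at ND6 in depleted replicate 2. In the other libraries of these days it was 0.01 to 0.09. The placing of the sparse replicate 2 was not corrected for this offset. The median TE step from ND3 to ND6 was -0.18 in depleted cells, with 179 of 233 negative (76.8%, against 47.1% of all transcripts). In control cells it was -0.72, with 212 negative (91.0%, against 54.7%).

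The median difference between the TE steps of this group was 0.52 (log2), against 0.1 over all transcripts, and 23 of the 233 had a negative difference (9.87%, against 43.6%). The footprint step had a median of -0.04 in depleted and -0.74 in control cells, and the mRNA step 0.15 and -0.06. Singly, 0 of the 233 passed the edgeR test of the TE step in depleted cells, in control cells or of the difference. Their counts at an unadjusted p under 0.05 were 11, 114 and 13, and DESeq2 called 0, 22 and 0. Without both sparse footprint libraries the median step in depleted cells was -0.06 and the median difference 0.68. Over all alternatives the step ranged from -0.4 to -0.04 and the difference from 0.28 to 0.7, and the medians over all transcripts moved as well. Without depleted footprint replicate 1 at ND3 the group difference was 0.5 against 0.41 over all transcripts, so that little of the gap to the rest was left. Without depleted footprint replicate 1 at ND6 the group step was -0.4 against -0.3 over all, and the group difference 0.28 against -0.26.

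**Figure D5:**
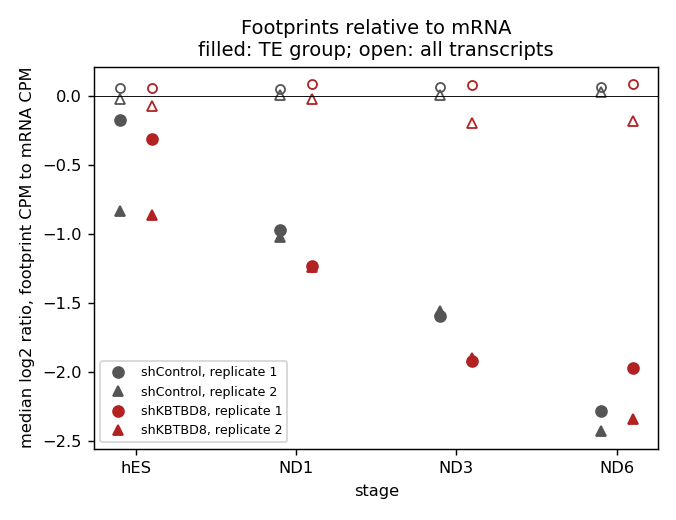
Median log2 ratio of footprint CPM to mRNA CPM by stage for the 233 transcripts with lower TE at ND3 in the separate set (filled) and for all transcripts (open); points are replicates, grey for shControl and red for shKBTBD8. The control medians went from -1.59 and -1.56 at ND3 to -2.28 and -2.43 at ND6, and the depleted medians went from -1.92 and -1.9 to -1.97 and -2.34.

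Risers in mRNA had larger length values and lower levels than the rest, and fallers were near the rest in both. The median level was 3.31 log2 CPM for risers, 4.11 for fallers and 4.06 for all tested, on a scale that is not divided by length. The files give a length value for each row, with no unit stated. The median length value was 482 for risers, 387 for fallers and 390 for all tested. In 5 classes of equal size, from the shortest to the longest, the share that rose was 4.5%, 7.08%, 9.77%, 9.54% and 12.1%, while the share that fell stayed between 7.93% and 8.67%. In control cells the share that rose went from 4.56% to 17.7%. The share that rose was also higher among scarce transcripts, at 12.9% in the lowest of 5 classes by mRNA level and 4.84% in the highest. The part that length plays in the counts was not tested. The median TE step hardly changed with length in depleted cells, from -0.04 to 0.03 (log2) over the 5 length classes and both replicates. In control cells it went from -0.29 in the shortest to 0.25 in the longest class in replicate 1, but from -0.05 to 0.0 in replicate 2, a trend present in 1 of the 2 control replicates. The 100 leading transcripts took 27.1% and 26.4% of the mRNA counts at ND3 and 29.0% and 28.2% at ND6 in depleted cells.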

How the data were processed

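The study sequenced mRNA and RNase I ribosome footprints. The deposited values are raw counts per transcript row, as whole numbers made by the authors, in files of 63691 rows for each of 46 libraries, with a length value per row whose unit is not given (the authors' other column). The submitters' processing notes name CASAVA 1.8, Bowtie2 2.0.6, TopHat2 2.0.7 and the hg19 build. The counting program, strandedness and treatment of multiply mapped reads were not given in the sources used here, so near-identical copies and overlapping or antisense genes are uncertain.

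Isoform rows share reads. Rows within 20 rows of each other, each with at least 10 counts on average, were joined where their counts over the libraries had a chi-square below 2 for each degree of freedom. The row with most counts represented its group. This gave 17680 transcripts, of which 7396 were single rows and the largest held 112. File totals as deposited count shared reads repeatedly, so depths are summed over transcripts. None of the identifiers (0) matched the gene name tables used here.

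Tests were edgeR 4.0.16 (R 4.3.3, limma 3.58.1) quasi-likelihood fits with TMM factors, filterByExpr and Benjamini-Hochberg adjustment over all transcripts tested, at 0.05. Each assay was fitted over 16 libraries in 8 groups with 2 replicates each (shControl and shKBTBD8 at hES, ND1, ND3 and ND6). The TE step is the interaction of assay and stage over 32 libraries, and the step difference that of hairpin and day. Standard errors are the log2 change divided by the root of F. CPM use TMM-scaled totals, log2 CPM a prior count of 2. The scripts were tested on simulated data. A separate set of 14 libraries, 7 per assay, was told apart by its titles and held shControl, shKBTBD8 and shTCOF1 libraries. With stage and hairpin as additive terms it gave the conversion groups (adjusted p under 0.05, at least 1 in log2) and the TE group. It was normalised on its own, with 0.5 CPM added before its log2 gaps.

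The members, groups and lists were chosen with earlier results of these data known. Gene lists and markers needed names and could not be applied. By rule 2 rising and 2 falling transcripts of at least 10 CPM were named: the largest step called in both assays, and the largest step difference. Alternatives were DESeq2 1.42.0, its size factors, other filters (none, or a mean count of at least 50), only the groups compared, a replicate block, ungrouped rows, no sparse libraries and each library left out. The comparison with the separate set at ND3 was added after the data were seen. Replicate numbers were not treated as pairs in the main tests. Steps given by replicate were taken between libraries of the same number.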

Additional observations from a re-analysis of the deposited data

Results flagged for a closer look

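The step from ND3 to ND6 differed between depleted and control cells in mRNA, by the edgeR interaction of hairpin and day, for 196 transcripts. The 4 transcripts named by rule are among them, uc001xfb.4 and uc003iym.3 because the rule chose them on this same test. Only the difference of uc003iym.3 passed in every fit that left out a library. The difference, depleted less control, was 2.23 for uc001rqt.3, 3.7 for uc001xfb.4, -1.53 for uc003cxt.1 and -3.4 for uc003iym.3 (log2). In each of the 4 the hairpins were apart at ND3, where their ranges did not overlap. In the separate set the ND3 gap in mRNA was smaller for uc003iym.3 and uc003cxt.1 and reversed for uc001rqt.3. At ND6 of the first set the ranges overlapped for uc001xfb.4, uc003cxt.1 and uc003iym.3, while both depleted libraries of uc001rqt.3 lay below both control libraries.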

How the results depend on the processing

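The mRNA step had 2987 calls and 1455 to 2159 with 1 library left out. Ungrouped rows, which count shared reads repeatedly, gave 7913 for the mRNA step, 650 for its difference, 440 for the footprint step and 3 for the TE step. The mRNA step difference (196) ranged from 48 to 176 with 1 library left out and was 375 by DESeq2. The footprint step (159) was 336 by DESeq2, 18 with only the groups compared, 37 without both sparse libraries, and 54 to 1206 with 1 library left out. The footprint step difference (0) was 23 by DESeq2 and 0 to 392 with 1 library left out. With 1 library left out, the TE step (1) had 1 to 1728 calls and its difference (0) had 0 to 896. The cause was not tested. Replicate numbers may pair the libraries: the replicate gap at ND3 and that at ND6 had a correlation of 0.44 in depleted and 0.22 in control mRNA and 0.15 and 0.11 in footprints, but 2 numbers do not establish it. With replicate as a block the mRNA step had 4292 calls, its difference 415, the footprint step 190 and its difference 4. Of 94 alternatives for the counts, 62 stayed within 1.5 times. Most of these 62 belonged to the footprint step difference, the TE step and its difference, where an unchanged 0 or 1 counted as within. Most alternatives for the mRNA step stayed within 1.5 times, but most for the mRNA step difference and for the footprint step did not. Of 167 for named transcripts, 144 kept their side of the threshold, 20 lost it, 3 gained it and 0 reversed. The shallow footprint libraries and 2 replicates per group limit the precision.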
